A study of Rattus norvegicus with 6 samples.

Results

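Axon guidance ligands and receptors were compared between 3 libraries of rat vascular smooth muscle cells labelled MIAT knockdown and 3 libraries titled Scr, whose genotype label is WT and which are called Scr control here. Symbols of the semaphorins, plexins, ephrins, Eph receptors, slits, robos, netrins and Unc5 receptors were taken by their first letters, with Nrp1 and Nrp2 added and Slitrk and Ntng genes left out. This gave 67 of the 18631 genes in the table. The symbol Unc50 matched by its letters only, since it encodes a membrane protein of another family, so the guidance genes were 66. Of these, 48 had a mean of at least 1 CPM (counts relative to the TMM-scaled library size) over the 6 libraries and were compared. The cells had 50 nM of small interfering RNAs and antisense oligonucleotides in total for 72 h per the labels, which repeat that text for all 6 libraries and do not say what the Scr cells received. The knocked-down transcript, MIAT, does not code for protein. Its level was not analysed here, so the groups are named by their labels alone. Polyadenylated RNA was sequenced to 18173111 to 18598394 counts per MIAT knockdown library and 17793811 to 20121161 per Scr control library. The labels do not tell whether the libraries of a group were separate cultures, so the p-values cover the spread between these libraries, which could be technical. Where the library number was fitted as a block, they cover only the spread left after differences between the numbers were removed. In RNA from bulk cultures, fewer cells of a type and less RNA per cell cannot be told apart.

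Guidance cues were first described as signals that attract or repel growing axons, and the same molecules steer migrating cells and growing vessels. Most secreted class 3 semaphorins bind neuropilins, which signal through plexins, while membrane semaphorins bind plexins directly. Ephrins are membrane-bound ligands of the Eph receptor tyrosine kinases, slits bind robo receptors, and netrins bind Unc5 receptors, DCC and neogenin. In the vessel wall, ephrin-B2 and EphB4 are known as markers of arterial and venous identity.

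The guidance genes of these cells were led by secreted cues. Compared per length in the authors' deposited FPKM (counts scaled by gene length and library total), Sema3c averaged 165 ± 38.3 FPKM in MIAT knockdown and 202 ± 67.5 FPKM in Scr control libraries (SD, n = 3 each). Slit3 was next, at 43.7 ± 12.5 FPKM in MIAT knockdown and 69.5 ± 31.4 FPKM in Scr control libraries. It was followed by the receptor gene Plxnb2 at 47.7 ± 3.4 and 54.1 ± 4.99 FPKM in the same groups, a level that did not differ from Slit3 beyond the spread. Unc5b, Ntn4, Ephb4, Ntn1 and Nrp2 came after these, with mean levels over all libraries between 22.2 and 31.9 FPKM. Sema3c alone made up 26.4% to 35.1% of the summed FPKM of all 66 guidance genes in MIAT knockdown and 26.2% to 38.8% in Scr control libraries. In 10 of the 12 families a single gene held more than 50% of the family's FPKM in every library. Sema3c held 92.4% to 94.5% of the class 3 semaphorins in MIAT knockdown libraries, against 92.1% to 94.5% in Scr control libraries. Unc5b held 94.6% to 96.4% of the Unc5 receptors in MIAT knockdown libraries, against 95.0% to 96.2% in Scr control libraries.

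**Figure D1:**
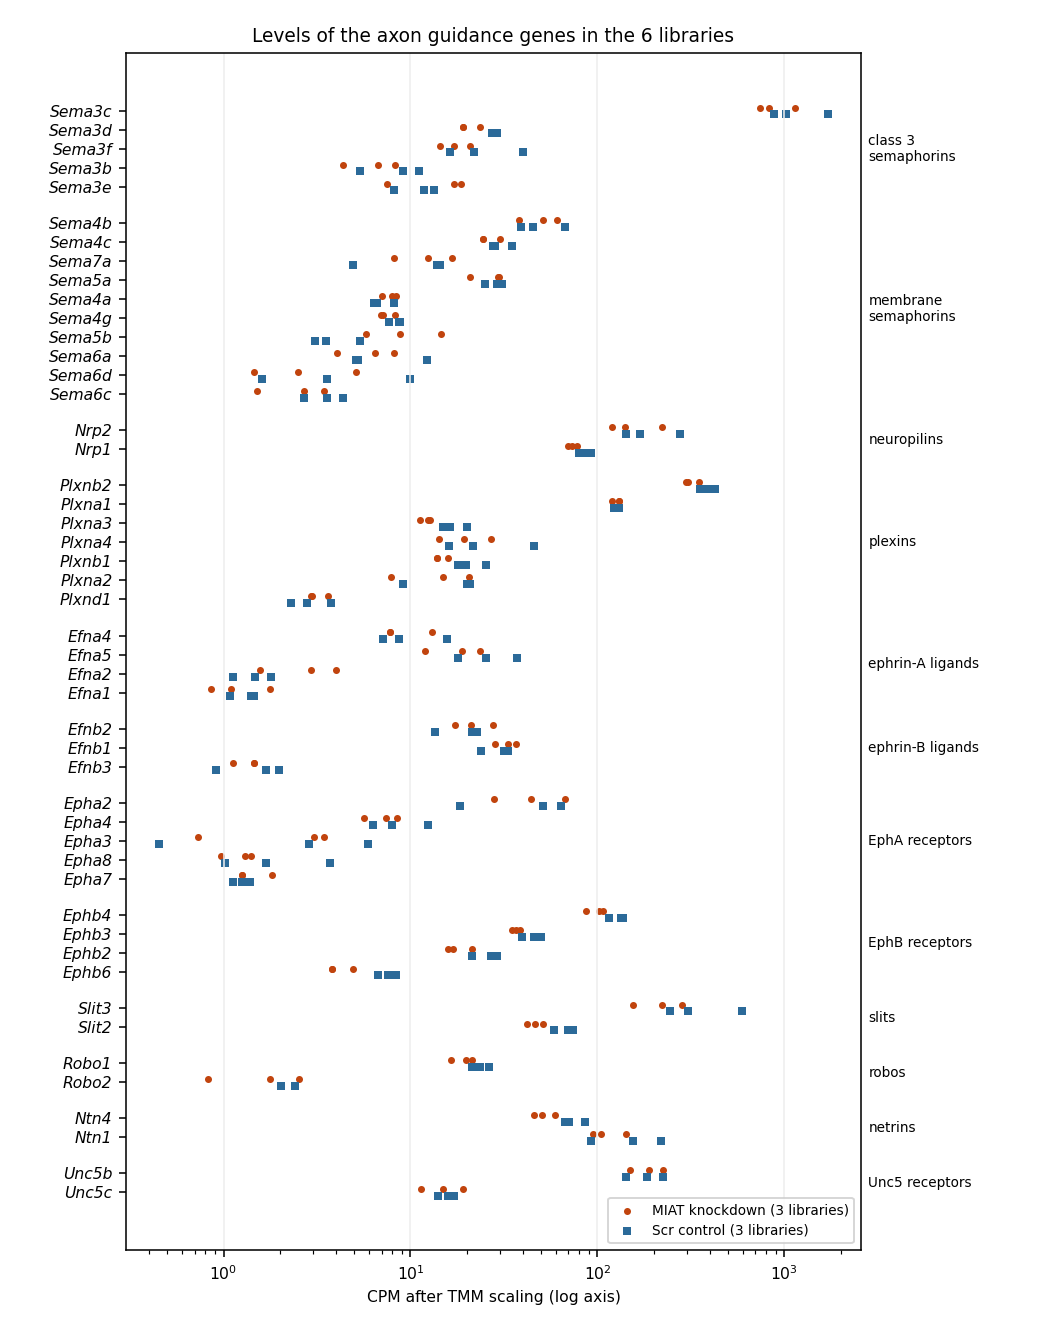
CPM on a log axis for the 48 guidance genes with a mean of at least 1 CPM, by family, with 1 point per library and MIAT knockdown above Scr control in each row. Sema3c lies to the right of all others. The knockdown libraries lie wholly below the controls in 12 of the 48 genes, the 4 EphB receptor genes among them. This is 25%, beside 12.1% of all tested genes with a mean of at least 1 CPM. They lie wholly above in 1 gene (2.08%, beside 14.8%).

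With the replicate number as a block, 17 of the 48 guidance genes fell, 1 rose and 30 did not pass (edgeR quasi-likelihood test, Benjamini-Hochberg adjusted p under 0.05 over 13423 tested genes). The words rose and fell refer to this fit. It was an alternative to the main fit, which had no block and called 0 of the 48 genes. The genes that fell were 35.4% of the 48, beside 11.6% of the 12611 tested genes with a mean of at least 1 CPM, and 2.08% rose, beside 11.0%. In either direction 22.6% of the genes of that level and 21.6% of all tested genes were called (11.1% fell and 10.5% rose). The genes that fell encode secreted cues (3 class 3 semaphorins, 2 slits and 2 netrins) and receptors (2 neuropilins, 3 plexins and 4 EphB receptors). The ephrin-A ligand gene Efna5 also fell, and Sema5b was the single riser. The median log2 fold change of the 48 genes was -0.25, with -0.006 for all tested genes with a mean of at least 1 CPM. Without the block, the median was -0.29 and edgeR called 0 of the 48 genes, as of all 13423 (0.0%), with 12 of the 48 at an unadjusted p under 0.05 (25%, beside 19.9% of all genes of that level, and 19.2% of all tested genes). On that design DESeq2 called 5 of the 48, Sema5b higher and Ephb6, Ntn4, Sema3d and Slit2 lower. It called 699 of all 13423 tested genes, 367 higher and 332 lower. On the same design limma-voom and limma on log2 FPKM called 0. The knockdown libraries lay wholly below the controls in 12 of the 48 genes (25%, beside 12.1% of all genes of that level) and wholly above in 1 (2.08%, beside 14.8%, with 26.9% of all genes apart in either direction). Within pairs of the same number, 21 of the 48 were lower in all 3 pairs (43.8%, beside 29.0%).

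**Figure D2:**
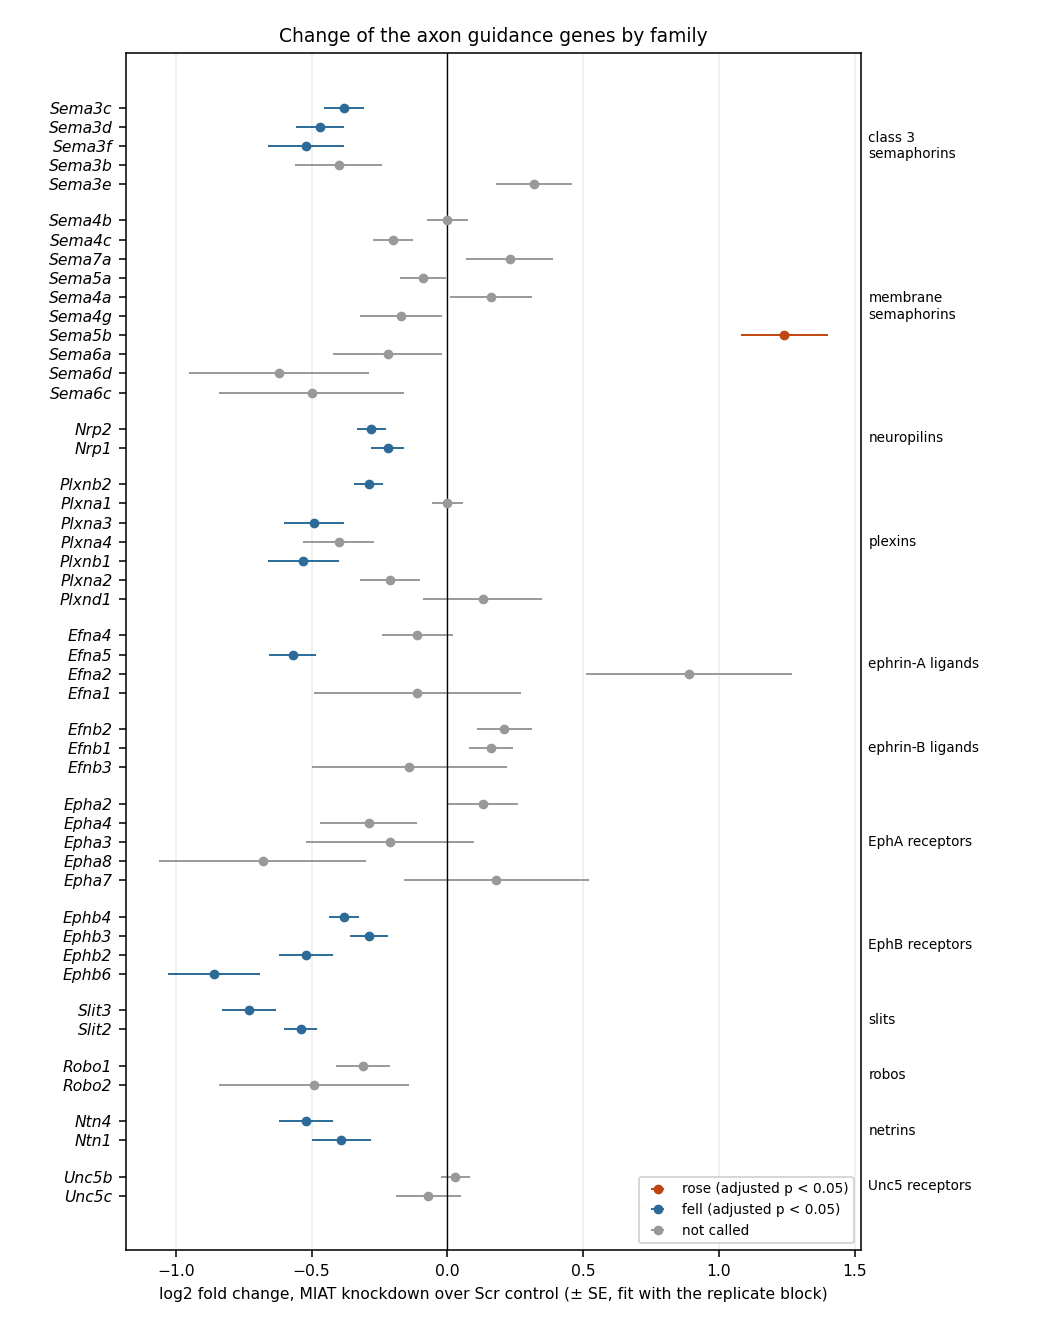
Log2 fold change of MIAT knockdown over Scr control with its SE for the 48 genes, from the fit with the replicate block, coloured by call. The 17 genes that fell lie between -0.22 and -0.86, and Sema5b stands at 1.24.

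Several calls ended when a pair was left out, which leaves 1 residual degree of freedom, while the log2 fold changes kept their sign. Without pair 2 the block fit called 7 of the 48 genes, 1 higher and 6 lower, and the calls of Ephb2, Ephb3, Ephb6, Nrp1, Nrp2, Ntn1, Ntn4, Plxna3, Plxnb2, Sema3c and Sema3f ended, with log2 fold changes between -0.98 and -0.20. Without pair 1, 14 were called, and the calls of Ephb2, Nrp1, Nrp2, Ntn1 and Plxnb1 ended at -0.53 to -0.18. Without pair 3, 21 were called, and that of Sema3f ended at -0.27. Over all tested genes, the fits without pair 2, 1 or 3 called 736, 1195 or 4124 genes, in the same order as the guidance counts. Sema5b, Slit2, Slit3, Ephb4, Sema3d and Efna5 kept their call in all 7 alternatives of the block fit (DESeq2, total count scaling, no filter on low counts, a correction for gene length, and each pair left out). When the block fit was tested against a fold of at least 1.5 with glmTreat, 0 of the 48 were called, and these 6 calls ended too (adjusted p = 0.11 for Sema5b and 1.0 for the others).

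Over all tested genes of at least 1 CPM, the changes went with gene length. The guidance genes compared had a median length of 5696 bases, with 3185 bases for all tested genes of at least 1 CPM, in the lengths implied by the deposited FPKM. Over all genes, the median log2 fold change was 0.12 in the shortest 10% of genes and -0.16 in the longest 10%, and 1.66% and 27.1% of these genes fell. Among the guidance genes themselves, the 17 that fell had a median length of 5672 bases and the 30 not called 6068 bases. With the length correction 11 of the 48 fell (22.9%, beside 8.01% of all genes of at least 1 CPM) and 2 rose, Sema5b and Sema3e. With total count scaling in place of TMM, 14 of the 48 fell (29.2%, beside 6.32%). Under the length correction the calls of Nrp1, Nrp2, Ntn1, Plxnb1, Plxnb2 and Sema3f ended, at log2 fold changes between -0.13 and -0.46.

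**Figure D3:**
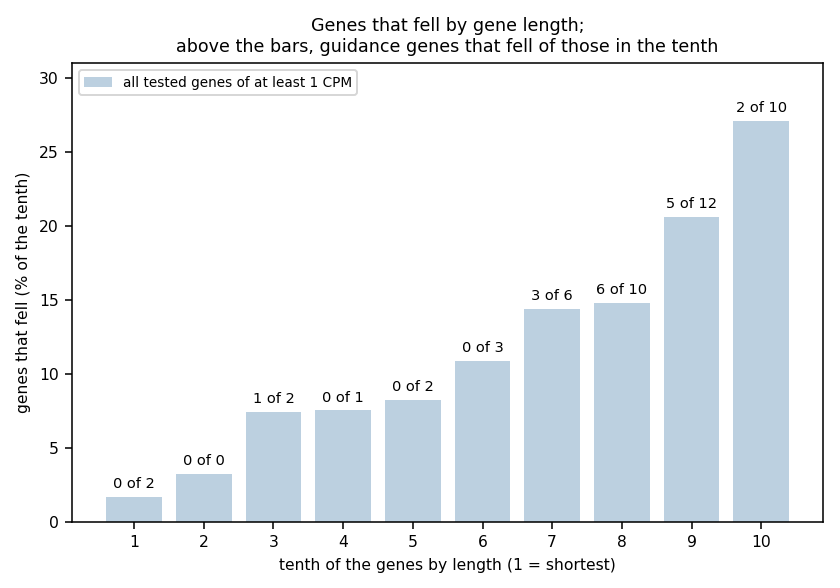
Bars give the percentage of tested genes with a mean of at least 1 CPM that fell in each of 10 bins of gene length with equal numbers of genes, and the text above each bar how many guidance genes fell of those in that bin. The share of all genes is 27.1% in the bin of the longest genes, bin 10, where 2 of 10 guidance genes fell. In bins 7, 8 and 9 it is 14.4%, 14.8% and 20.6%, where 3 of 6, 6 of 10 and 5 of 12 fell. Bins 1 to 6 hold at most 3 guidance genes each, of which 1 in bin 3 fell.

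Among markers of other cells, 4 of 6 fibroblast markers fell (Pdgfra, Lum, Dcn and Dpt), beside 11.1% of all tested genes. The other markers did not pass. Pi16 had a log2 fold change of 0.01, and Col14a1 was lower in pair 3 only (-1.66, against 0.17 and 0.07 in pairs 1 and 2). The summed level of the 6 markers was 1437 to 1753 CPM in MIAT knockdown and 2033 to 2186 CPM in Scr control libraries, and 0 of the 6 were at 0. Their part in the guidance genes' change was not tested. Of 10 endothelial markers, 7 were tested and only Kdr fell, at a low level (2.25 ± 1.32 CPM in MIAT knockdown and 4.58 ± 2.87 CPM in Scr control libraries), and the summed level was 16.4 to 52.9 against 17.1 to 45.8 CPM. Of 9 neuronal markers in the table, 5 were tested and only Nefm fell, with a summed level of 76.5 to 93.4 against 94.3 to 100.4 CPM, most of it Stmn2. The neuronal marker Rbfox3 was at 0 in all MIAT knockdown libraries and in Scr control libraries 1 and 3, and at 0.112 CPM in Scr control library 2. The 8 smooth muscle markers were present at 5265 to 7656 against 5952 to 7629 CPM. Of these, Myh11 and Lmod1 fell, beside 11.1% of all tested genes. Of the Schwann cell or glial markers 4 were tested, and of the macrophage markers 2. None of these was called with the block, and their summed levels were 14.6 to 16.0 against 16.8 to 18.2 CPM for the glial list and 7.67 to 11.7 against 6.85 to 17.0 CPM for the macrophage list, MIAT knockdown against Scr control.

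Promoters are shown for 5 of the 6 genes (all but Slit2) that kept their call in the 7 alternatives named above, though not against a fold of 1.5, since each of them moved in its own direction in every pair and their start regions can be set side by side. The windows run from 250 bases before to 50 after the gene start in RefSeq's GRCr8 annotation, 5′ to 3′, and capitals mark matches to the motifs searched. Sema5b lies at chr11:78730540-78730839 on the minus strand, Slit3 at chr10:20075679-20075978 on the plus strand, Ephb4 at chr12:24988339-24988638 on the minus strand, Sema3d at chr4:23460922-23461221 on the minus strand and Efna5 at chr9:110042138-110042437 on the minus strand. The capitals are GC boxes in Slit3 and Ephb4 and the E-box in Efna5.
Sema5b: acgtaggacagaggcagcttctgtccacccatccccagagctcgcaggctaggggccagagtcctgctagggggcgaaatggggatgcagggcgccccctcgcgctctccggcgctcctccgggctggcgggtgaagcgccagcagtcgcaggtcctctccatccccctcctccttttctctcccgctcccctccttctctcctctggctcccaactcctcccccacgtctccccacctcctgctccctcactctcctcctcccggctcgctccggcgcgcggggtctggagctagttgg
Slit3: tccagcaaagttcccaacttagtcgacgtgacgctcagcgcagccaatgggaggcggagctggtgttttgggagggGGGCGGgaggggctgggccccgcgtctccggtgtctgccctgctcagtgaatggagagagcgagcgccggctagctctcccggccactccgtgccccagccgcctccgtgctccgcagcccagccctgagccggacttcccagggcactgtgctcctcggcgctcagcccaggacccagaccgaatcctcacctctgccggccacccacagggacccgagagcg
Ephb4: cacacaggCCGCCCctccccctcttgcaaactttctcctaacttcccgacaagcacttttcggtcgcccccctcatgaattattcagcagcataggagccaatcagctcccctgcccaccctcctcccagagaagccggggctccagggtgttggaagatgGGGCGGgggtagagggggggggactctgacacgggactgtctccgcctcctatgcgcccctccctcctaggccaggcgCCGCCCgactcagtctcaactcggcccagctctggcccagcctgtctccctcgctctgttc
Sema3d: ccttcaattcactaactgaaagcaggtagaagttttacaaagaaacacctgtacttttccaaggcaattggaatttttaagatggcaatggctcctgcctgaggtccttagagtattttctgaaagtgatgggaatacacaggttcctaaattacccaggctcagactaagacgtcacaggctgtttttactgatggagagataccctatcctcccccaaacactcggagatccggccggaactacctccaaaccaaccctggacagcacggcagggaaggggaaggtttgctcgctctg
Efna5: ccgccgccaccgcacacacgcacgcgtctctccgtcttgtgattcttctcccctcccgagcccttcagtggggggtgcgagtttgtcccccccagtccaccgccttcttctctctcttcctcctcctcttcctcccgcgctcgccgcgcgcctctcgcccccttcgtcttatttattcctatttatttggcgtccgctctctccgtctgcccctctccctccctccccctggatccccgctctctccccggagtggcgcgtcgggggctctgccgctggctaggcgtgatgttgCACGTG

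The 5 windows were unlike each other in base composition. The Efna5 window held 29 CG dinucleotides, Slit3 24, Sema5b 20, Ephb4 14 and Sema3d 6, and the median over the 27457 RefSeq promoters of this length was 7. The motifs searched on both strands were the E-box of MYC and related factors (CACGTG), the AP-1 site (TGANTCA), the TEAD site (GGAATG), the GC box of SP1 and Kruppel-like factors (GGGCGG) and the CArG box of SRF, and no motif overlapped another in these windows. The GC box was in 7 of the 14 windows of genes that fell (50.0%), in 15 of 22 of genes not called (68.2%) and in 34.9% of all promoters. These sets also differed in composition, with a median of 19 CG dinucleotides in genes that fell, 21 in genes not called and 7 over all promoters. The E-box was in 1 of 14 (Efna5), in 3 of 22 (Epha8, Sema3e and Sema4b) and in 6.65% of all. The CArG box was in 1 of 14 (Sema3c), in 0 of 22 and in 1.64% of all, and the AP-1 site, in 7.33% of all, was in 0 of either set. The TEAD site was in 0 of 14, in 1 of 22 (Epha2) and in 13.9% of all. These are matches of letters and were not tested as binding sites.

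Of 5 class 3 semaphorin genes, 3 fell, beside 11.6% of all tested genes with a mean of at least 1 CPM. Sema3c, a secreted cue that binds both neuropilins and is needed for development of the cardiac outflow tract, had 825, 741 and 1135 CPM in MIAT knockdown libraries 1 to 3 and 1019, 879 and 1702 CPM in Scr control libraries 1 to 3. The groups overlapped because library 3 was high in both, but within each pair the knockdown library was lower. Sema3c fell by 0.38 on the log2 scale (SE 0.073, edgeR adjusted p = 0.00981 with the block and 0.46 without it). Sema3d had 19.1, 23.5 and 19.1 CPM in MIAT knockdown libraries against 28.6, 29.1 and 27.2 CPM in Scr control libraries, with no overlap. Its log2 fold change was -0.47 (SE 0.088, edgeR adjusted p = 0.00897 with the block and 0.117 without). Sema3f, a ligand of neuropilin 2, had 17.1, 14.3 and 20.7 CPM against 21.8, 16.2 and 40.2 CPM in the controls, so its difference was widest in pair 3. Its log2 fold change was -0.52 (edgeR adjusted p = 0.0336 with the block, 0.385 without). Sema3b, at 6.44 ± 1.97 CPM in MIAT knockdown and 8.53 ± 2.89 CPM in Scr control libraries, and Sema3e, at 14.4 ± 6.01 and 11.1 ± 2.69 CPM, did not pass. Sema3e was the family's only gene with a positive log2 fold change, 0.32.

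Both neuropilin genes, which encode receptors of class 3 semaphorins, fell, beside 11.6% of all genes of at least 1 CPM. Nrp1, which also serves as a co-receptor for VEGF, had 69.5, 77.6 and 73.0 CPM in MIAT knockdown libraries and 84.0, 92.3 and 79.5 CPM in Scr control libraries. Nrp2 had 140.1, 119 and 221 CPM in MIAT knockdown libraries and 168, 142 and 276 CPM in Scr control libraries. The groups did not overlap for Nrp1 and overlapped for Nrp2, whose level in library 3 was high in both groups. Nrp1 fell by 0.22 (SE 0.06, edgeR adjusted p = 0.0352, 0.229 without the block) and Nrp2 by 0.28 on the log2 scale (SE 0.053, edgeR adjusted p = 0.00902, 0.661 without the block). With DESeq2 and the block the Nrp1 call ended at -0.23 (adjusted p = 0.122), and with total count scaling at -0.11 (0.27).

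Plexins, the signalling receptors of semaphorins, split between falls and no call. Plxnb2, the most abundant, had 297, 349 and 306 CPM in MIAT knockdown libraries and 353, 426 and 384 CPM in Scr control libraries, without overlap. It fell by 0.29 on the log2 scale (SE 0.053, edgeR adjusted p = 0.00851, 0.206 without the block). Plxna3 had 11.2, 12.4 and 12.7 CPM against 15.0, 16.2 and 20.1 CPM in the controls, and Plxnb1 had 13.8, 15.8 and 13.8 against 19.7, 18.0 and 25.4 CPM. Neither overlapped, and their log2 fold changes were -0.49 and -0.53 (edgeR adjusted p = 0.0145 and 0.0243, each 0.145 without the block). Plxna1, the second most abundant plexin gene, was at 127 ± 6.2 CPM in MIAT knockdown and 127 ± 4.23 CPM in Scr control libraries, a log2 fold change of 0.00 with an SE of 0.056. Plxna4 had a log2 fold change of -0.40 that narrowly missed the threshold (edgeR adjusted p = 0.0572), with 26.8 CPM in MIAT knockdown library 3 against 45.8 CPM in Scr control library 3. Plxna2 (-0.21) and Plxnd1 (0.13) did not pass.

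Membrane semaphorins, which signal through plexins at cell contacts, had no gene that fell among 10, beside 11.6% of all genes of at least 1 CPM. Their median log2 fold change was -0.13. Sema5b, a transmembrane semaphorin with thrombospondin repeats, had 8.75, 5.80 and 14.5 CPM in MIAT knockdown libraries against 3.52, 3.09 and 5.35 CPM in Scr control libraries. Every knockdown library lay above every control library, and library 3 was the highest of its group in both. Sema5b rose 2.37-fold (log2 fold change 1.24, SE 0.16, edgeR adjusted p = 0.0031 with the block and 0.149 without). Its relative Sema5a was at 26.6 ± 5.16 CPM in MIAT knockdown and 28.2 ± 2.96 CPM in Scr control libraries and did not pass. Sema4b, the most abundant by length, was at 50.0 ± 11.3 and 50.4 ± 14.5 CPM in these groups, and its sign changed with the setting. Sema4c, a ligand of plexin B2, was lower in all 3 pairs by 0.17 to 0.21 and did not pass (edgeR adjusted p = 0.0902). The other members, Sema4a, Sema4g, Sema6a, Sema6c, Sema6d and Sema7a, had log2 fold changes of -0.62 to 0.23 and did not pass.

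**Figure D4:**
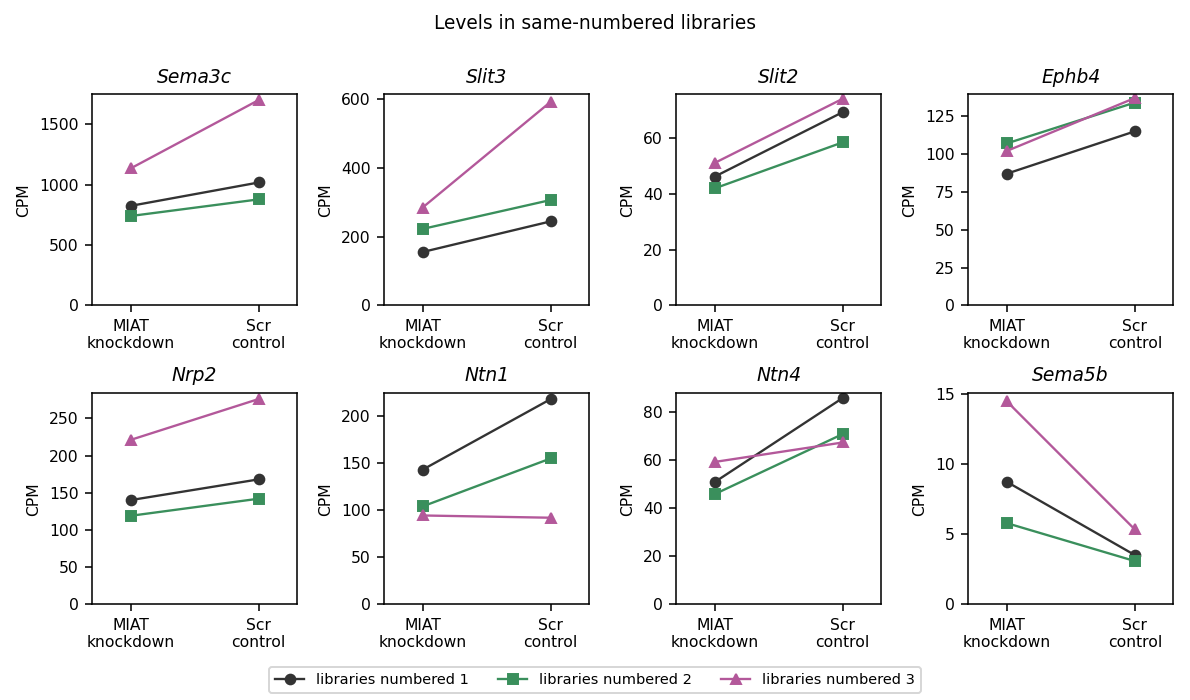
CPM of 8 guidance genes in MIAT knockdown (left) and Scr control (right), with lines joining libraries of the same number and each vertical axis starting at 0. Lines run in the same direction in all pairs except for Ntn1, where the libraries numbered 3 stand at 94.4 CPM in MIAT knockdown and 92.0 CPM in Scr control.

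All 4 EphB receptor genes with at least 1 CPM fell, beside 11.6% of all genes of that level. None of the 4 overlapped between the groups, beside 12.1% of all genes of that level wholly lower in the knockdown libraries. Ephb4, the receptor of ephrin-B2 known from venous endothelium, had 87.0, 107 and 102 CPM in MIAT knockdown libraries and 115, 134 and 137 CPM in Scr control libraries. It fell by 0.38 on the log2 scale (SE 0.055, edgeR adjusted p = 0.00381, 0.145 without the block). Ephb6, whose kinase domain is inactive, had 3.80, 4.94 and 3.79 CPM against 6.69, 7.58 and 8.41 CPM in the controls and had the lowest log2 fold change of the 48 genes, -0.86 (SE 0.17, edgeR adjusted p = 0.0111, 0.11 without the block). Ephb2 had 16.9, 15.9 and 21.3 CPM in MIAT knockdown libraries and 29.0, 21.4 and 27.1 CPM in Scr control libraries. Ephb3 had 34.8, 36.8 and 38.5 CPM in MIAT knockdown libraries and 39.5, 45.5 and 49.6 CPM in Scr control libraries. Ephb2 was lowest relative to its control in pair 1 (-0.78) and Ephb3 in pair 3 (-0.37). The log2 fold changes were -0.52 for Ephb2 and -0.29 for Ephb3 (edgeR adjusted p = 0.0114 and 0.023 with the block, 0.164 and 0.195 without). The Ephb3 call ended with the block in DESeq2 at -0.30 (adjusted p = 0.0862) and with total count scaling at -0.18 (0.0953). When pair 2 was left out, the calls of Ephb2, Ephb3 and Ephb6 ended and that of Ephb4 was kept.

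The ligands of EphB receptors did not pass. Efnb2, which encodes ephrin-B2, had 27.7, 21.1 and 17.4 CPM in MIAT knockdown libraries and 22.8, 21.3 and 13.5 CPM in Scr control libraries, a log2 fold change of 0.21 (SE 0.10, edgeR adjusted p = 0.168). Efnb1 was at 32.8 ± 4.28 CPM in MIAT knockdown and 29.5 ± 4.93 CPM in Scr control libraries, a log2 fold change of 0.16 (edgeR adjusted p = 0.191). Efnb2 was lowest in the library numbered 3 of either group. Efnb3 was low, at 1.35 ± 0.19 and 1.53 ± 0.554 CPM. Whether EphB receptors and ephrin-B ligands differ in their change was not tested.

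Of the A class, 1 of 4 ligand genes fell and 0 of 5 receptor genes passed. Among all genes of at least 1 CPM, 11.6% fell and 22.6% passed in either direction. Efna5, a ligand anchored to the membrane by a lipid, had 12, 18.8 and 23.4 CPM in MIAT knockdown libraries and 18.0, 25.5 and 37.2 CPM in Scr control libraries. Library 1 was the lowest and library 3 the highest in both groups, which overlapped, and each knockdown library was below its control by 0.44 to 0.67 on the log2 scale. It fell by 0.57 (SE 0.088, edgeR adjusted p = 0.00473, 0.378 without the block). Efna4, the most abundant ephrin-A gene by length, was at 9.52 ± 2.99 CPM in MIAT knockdown and 10.5 ± 4.61 CPM in Scr control libraries. Efna2 had a log2 fold change of 0.89 with an SE of 0.38 and did not pass (edgeR adjusted p = 0.129), with 2.92, 1.56 and 4 CPM in MIAT knockdown libraries against 1.47, 1.80 and 1.12 CPM in Scr control libraries. Epha2, a receptor of ephrin-A1 and the most abundant EphA gene, had 67.3, 44.0 and 27.9 CPM in MIAT knockdown libraries and 64.0, 51.2 and 18.4 CPM in Scr control libraries. Its spread over the library numbers, 1.5 on the log2 scale, was wider than its log2 fold change of 0.13. Epha3, Epha4, Epha7 and Epha8 had log2 fold changes between -0.68 and 0.18 and did not pass.

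Both slit genes of at least 1 CPM fell, beside 11.6% of all genes of that level. Slit2 had 46.1, 41.9 and 51.0 CPM in MIAT knockdown libraries and 69.2, 58.4 and 74.0 CPM in Scr control libraries, without overlap. It fell by 0.54 on the log2 scale and had the smallest adjusted p of the 48 genes (SE 0.062, edgeR adjusted p = 0.00212, 0.11 without the block). Slit3 had 155, 222 and 284 CPM in MIAT knockdown libraries and 244, 306 and 591 CPM in Scr control libraries, where library 3 stood apart. It fell by 0.73 (SE 0.10, edgeR adjusted p = 0.0034, 0.292 without the block), by 0.66, 0.47 and 1.06 within pairs 1, 2 and 3. Robo1, the main slit receptor gene here, had 21.3, 19.9 and 16.4 CPM in MIAT knockdown libraries and 26.3, 21.3 and 23.6 CPM in Scr control libraries. It did not pass (log2 fold change -0.31, SE 0.10, edgeR adjusted p = 0.059), nor did Robo2, at 1.71 ± 0.848 and 2.29 ± 0.214 CPM.

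Both netrin genes of at least 1 CPM fell, beside 11.6% of all genes of that level, while their Unc5 receptor genes did not pass. Ntn4, a netrin that binds laminins in basement membranes, had 50.8, 45.8 and 59.2 CPM in MIAT knockdown libraries and 85.8, 70.8 and 67.3 CPM in Scr control libraries. It fell by 0.52 on the log2 scale (SE 0.10, edgeR adjusted p = 0.0105, 0.125 without the block), and its groups did not overlap. Ntn1, the ligand of the Unc5 receptors, had 143, 104 and 94.4 CPM in MIAT knockdown libraries and 218, 155 and 92.0 CPM in Scr control libraries. Pair 3 did not share the difference, at 0.04 on the log2 scale, against -0.61 and -0.57 in pairs 1 and 2. Its log2 fold change was -0.39 (SE 0.11, edgeR adjusted p = 0.0414, 0.475 without the block), and the call ended with total count scaling at -0.28 (adjusted p = 0.121). Unc5b had 189, 224 and 149 CPM in MIAT knockdown libraries and 185, 224 and 143 CPM in Scr control libraries, with a log2 fold change of 0.03 and an SE of 0.052. Within pairs the Unc5b libraries were 0.00 to 0.06 apart on the log2 scale. Unc5c was at 15.1 ± 3.9 and 15.6 ± 1.48 CPM in these groups.

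In 32 of the 48 guidance genes the mean of the pair spanned more, on the log2 scale, over numbers 1 to 3 than the log2 fold change between the groups. The span runs from the lowest to the highest pair mean, and the fold change is a single fitted difference, so the measures are unlike. The same count was not made over all tested genes, so it cannot be called particular to the guidance genes. Epha3 spanned 2.99, Sema6d 1.88 and Epha2 1.5, and Slit3 1.13. Genes with a span below the size of the fold change included the 4 EphB receptors (0.25 to 0.38), Slit2 (0.32), Sema3d (0.18) and Ntn4 (0.23). Genes that were not called were also among them, such as Efna2 (0.61), Sema6c (0.1) and Sema4g (0.03). What the numbers stand for is not given in the labels.

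**Figure D5:**
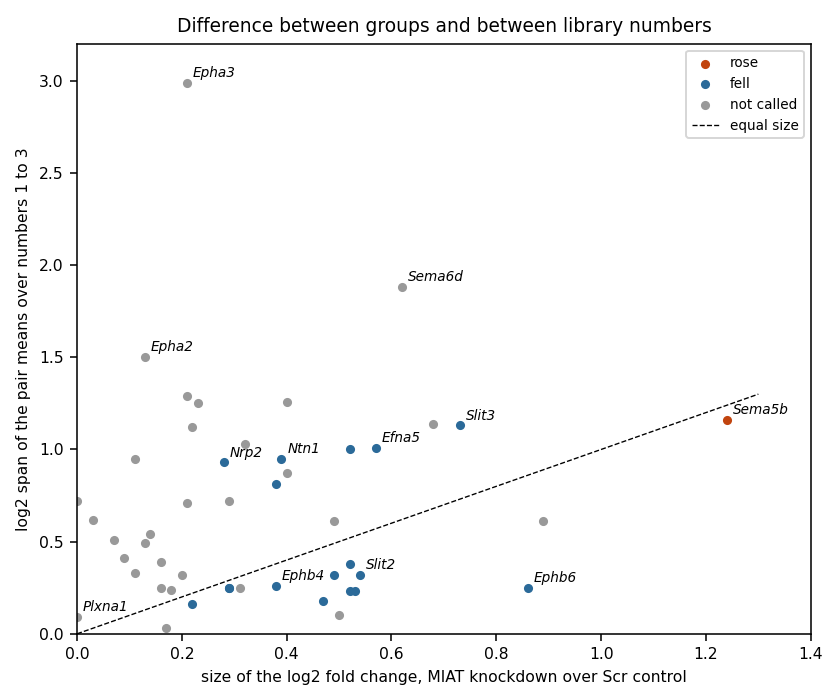
For each of the 48 guidance genes, the size of the log2 fold change between MIAT knockdown and Scr control (horizontal) and the log2 span of the pair means over library numbers 1 to 3 (vertical). Above the dashed line of equal size lie 32 genes, Epha3 the highest at 2.99.

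The other 18 guidance genes had means of 0.0173 to 0.762 CPM, and the lowest mean among those compared was 1.27 CPM. They were Sema3a, Sema3g, Sema4d, Sema4f, Sema6b, Plxnb3, Plxnc1, Efna3, Epha1, Epha6, Epha10, Ephb1, Slit1, Robo3, Ntn3, Ntn5, Unc5a and Unc5d. Of these, 5 had enough counts to be tested, and with the block edgeR called 0 of them (0 at an unadjusted p under 0.05). Unc50, outside the guidance families, was at 34.6 ± 0.417 CPM in MIAT knockdown and 30.3 ± 0.18 CPM in Scr control libraries and did not pass (log2 fold change 0.19, edgeR adjusted p = 0.0886).

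Among genes that act with or below these receptors, 11 of 102 tested rose (10.8%, beside 10.5% of all tested genes) and 20 fell (19.6%, beside 11.1%). Of 33 tested genes of semaphorin and plexin signalling, 4 rose (12.1%), 10 fell (30.3%) and 19 did not pass, with a median log2 fold change of -0.11. Met, the HGF receptor that associates with B plexins, rose by 0.45 and Itga1, an integrin subunit of the semaphorin 7A receptor, fell by 0.55. Of 26 genes of ephrin signalling, 3 rose and 3 fell (11.5% each, near the share of all tested genes), among them Rasa1, a Ras-inactivating protein, at 0.45, the exchange factor Vav2 at 0.34 and the adaptor Anks1b at -0.44. Of 26 genes of slit and robo signalling, 1 rose (3.85%) and 3 fell (11.5%), with Dag1, the dystroglycan gene whose product binds slits, at -0.38, and the Ras exchange factors Sos1 at -0.28 and Sos2 at 0.30. Of 17 tested genes listed with the netrin co-receptors and other guidance cues, 3 rose (17.6%) and 4 fell (23.5%). This list also holds genes for proteins inside the cell, which are neither receptors nor cues, among those that rose and those that fell. Neo1, which encodes the netrin receptor neogenin, had 82.5, 86.3 and 82.7 CPM in MIAT knockdown libraries and 108, 118 and 131 CPM in Scr control libraries, a log2 fold change of -0.50 (SE 0.067, edgeR adjusted p = 0.00316, 0.104 without the block). Cxcr4, the receptor of the chemokine CXCL12, had 3.18, 1.77 and 2.18 CPM against 11.8, 5.89 and 2.20 CPM in the controls, so its log2 fold change of -1.31 came from pairs 1 and 2. Adora2b, an adenosine receptor reported to bind netrin-1, rose by 0.48. The netrin receptor gene Dcc was at a mean of 0.0835 CPM, below the level tested. Without the block 0 genes of these 4 lists passed in edgeR.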

How the data were processed

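Unnormalised counts and FPKM for each gene symbol were deposited by the authors as separate tables. The deposited FPKM equalled the count over 1 length per gene and the library's total (implied lengths differed by a relative 3.4e-07 at most between libraries). The sources used here do not give the aligner, counter, strand setting or build. Columns were mapped to libraries by title. Genes were filtered with filterByExpr, scaled with TMM and tested with edgeR 4.0.16 in R 4.3.3, over all 13423 genes that passed; the fit without a block was the main one. DESeq2 1.42.0 and limma 3.58.1 served as alternatives. The fit was tested on simulated data. Same-numbered libraries deviated together from their group means (correlations across genes 0.676, 0.517 and 0.582 for numbers 1, 2 and 3). The other correlations were -0.562 to -0.052. Deviations cancel out within a group, so positive same-numbered values force the others to be negative on balance, and that contrast adds no support. From the same-numbered values, the numbers, shared in the titles and borne out by the data only, were taken to pair the libraries. The biological coefficient of variation was 19.7% without and 8.09% with the block, on 4 and 2 residual degrees of freedom. Genes given in full were those past the threshold in either fit and the most abundant of each family by FPKM. For each of 4 lists of signalling genes, the 3 largest changes past the threshold were named, except 1 gene that is not reported here. The members, lists and tests were chosen with earlier results of these data known. All 67 symbols matched the RefSeq table of GRCr8, and 52 had a promoter there; the authors' build is unknown. Total counts limit the precision of low genes.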

Additional observations from a re-analysis of the deposited data

How the results depend on the processing

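The count of called genes was 0 in edgeR without the block, also with DESeq2 size factors, total counts, no filter or a filter at 1 CPM, glmTreat against a fold of 1.5, limma-voom, limma on log2 FPKM, and with any single library left out. With the replicate block, 2898 genes and 18 guidance genes were called, also 18 when members of at least 0.5 CPM or at least 5 CPM were counted. DESeq2 called 699 genes and 5 guidance genes, and 1590 and 16 with the block. With the block, total count scaling gave 3641 and 17 (2822 genes higher, 819 lower, with Efnb1 and Sema3e among the 3 guidance genes that were higher), no filter 3128 and 19, the length correction 2295 and 13, and a minimum fold of 1.5 gave 23 and 0. Total count scaling moved the median of all genes to 0.094 without and 0.098 with the block, from -0.014 and -0.009 under TMM. Leaving out pair 1, 2 or 3 in the block fit gave 1195, 736 or 4124 genes and 14, 7 or 21 guidance genes, and leaving out single libraries without the block gave 0 of each. The median log2 fold change of the 48 guidance genes, -0.29, was -0.25 with the block, with limma-voom, and with a minimum fold and the block. It was -0.24 with the block and no filter, -0.18 with total counts, -0.14 with total counts and the block, -0.16 with the length correction and the block, and -0.08 and -0.13 with limma on log2(FPKM + 1) and log2(FPKM + 0.1). It was -0.32 to -0.20 when a library was left out and -0.29 to -0.21 (-0.22 without pair 1) when a pair was left out of the block fit.

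Among the 24 genes given in full, 5 changed sign under some setting, and 4 of these 5 were not called in any block fit. Sema4b, at -0.01, was 0.00 with the block, with a minimum fold and the block, with limma-voom and with no filter, 0.01 with no filter and the block and with the block without pair 3, 0.03 with the length correction, 0.07 with the block without pair 2, 0.09 and 0.11 with total counts without and with the block, 0.10 and 0.11 with limma on log2 FPKM, 0.15 without MIAT knockdown library 3 and 0.24 without Scr control library 2. Efna4, at -0.14, was 0.01 with limma on log2 FPKM at either pseudocount, 0.00 with total counts and the block, and 0.28 without Scr control library 3. Epha2, at 0.06, was -0.30 without MIAT knockdown library 1, -0.32 without Scr control library 3 and -0.07 with the block without pair 3. Unc5b, at 0.03, was -0.12 without MIAT knockdown library 2 and -0.12 without Scr control library 3. Nrp2, at -0.29, was 0.04 without Scr control library 3. With single libraries left out, the other end of the range was -0.17 for Sema4b, -0.43 for Efna4, 0.41 for Epha2, 0.19 for Unc5b and -0.59 for Nrp2. The cause was not tested.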
